A study of Mus musculus with 4 samples.

Results

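The 10 genes described here encode zinc-dependent histone deacetylases (HDACs): *Hdac1*, *Hdac2*, *Hdac3*, *Hdac4*, *Hdac5*, *Hdac6*, *Hdac7*, *Hdac8*, *Hdac10* and *Hdac11*. They were chosen by symbol, as the family on which butyrate acts as an inhibitor, and make up 10 of the 36144 gene names in the count table. Transcript counts came from bulk RNA-seq of mouse colonoids, which are 3-dimensional cultures of colonic epithelium. All cultures were at passage 3 and, per the labels, came from a WT male mouse aged 24 weeks, whereas the study's methods describe colonoids grown from crypts of the proximal colon of Hes1-GFP reporter mice. The medium of all cultures held EGF, Noggin, R-spondin, B27, N2, the GSK3 inhibitor CHIR99021 and the ROCK inhibitor Y-27632. Colonoids were either untreated or given 2 mM sodium butyrate and were collected at 48 h (day 2) or 72 h (day 3), with 1 library for each of the 4 conditions. Differences between libraries therefore have no replicate check, no test was made, and the intervals below are 95% intervals for counting error only. They are exact for a change between libraries and approximate for a difference between changes.

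HDACs remove acetyl groups from lysines of histones and other proteins, and at histones this is associated with compact chromatin and low transcription. Class I enzymes (HDAC1, HDAC2, HDAC3 and HDAC8) are mainly nuclear, and all but HDAC8 work inside corepressor complexes. Class IIa enzymes (HDAC4, HDAC5 and HDAC7) have weak catalytic activity of their own, bind MEF2 transcription factors and move between nucleus and cytoplasm when kinases phosphorylate them and 14-3-3 proteins hold them. HDAC6 and HDAC10 form class IIb, with tubulin and polyamines among their substrates, and HDAC11 is the only class IV enzyme. Butyrate, a short-chain fatty acid made by bacteria that ferment fibre in the colon, inhibits class I enzymes in particular, while HDAC6 and HDAC10 are known to be largely insensitive to it. In the gut epithelium, HDAC1 and HDAC2 together are known for their part in proliferation and differentiation.

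Promoters are shown for *Hdac4* and *Hdac7*, whose normalised counts were both lower with butyrate at 48 h, and for *Hdac2*, which differed by less than counting error. The RefSeq promoter table (GRCm38.p6) matched 7 of the 10 genes with 10 windows, and *Hdac1*, *Hdac3* and *Hdac10* had no entry. Each sequence below holds the 250 bases before a transcription start, 5′ to 3′ on the strand of the gene, and capitals mark GC boxes (GGGCGG, or CCGCCC on the other strand), the letters bound by Sp1-like factors. The *Hdac4* window lies at chr1:92180342-92180591 (minus strand), before the start of 2 coding transcripts and in an intron of longer ones. The *Hdac7* window lies at chr15:97831768-97832017 (minus strand), before the start of 1 coding transcript and in an intron of longer ones. The *Hdac2* window lies at chr10:36974294-36974543 (plus strand), before the start of the gene.
Hdac4: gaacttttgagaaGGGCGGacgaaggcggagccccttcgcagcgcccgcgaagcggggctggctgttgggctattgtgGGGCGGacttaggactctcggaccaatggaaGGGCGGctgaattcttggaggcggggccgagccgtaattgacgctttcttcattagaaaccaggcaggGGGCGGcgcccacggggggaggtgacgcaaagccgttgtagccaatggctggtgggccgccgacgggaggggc
Hdac7: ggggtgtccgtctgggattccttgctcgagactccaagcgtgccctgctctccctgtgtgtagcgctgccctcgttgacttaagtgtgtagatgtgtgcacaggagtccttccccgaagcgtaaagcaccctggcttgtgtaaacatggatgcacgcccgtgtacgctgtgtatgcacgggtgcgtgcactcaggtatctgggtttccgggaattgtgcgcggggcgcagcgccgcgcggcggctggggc
Hdac2: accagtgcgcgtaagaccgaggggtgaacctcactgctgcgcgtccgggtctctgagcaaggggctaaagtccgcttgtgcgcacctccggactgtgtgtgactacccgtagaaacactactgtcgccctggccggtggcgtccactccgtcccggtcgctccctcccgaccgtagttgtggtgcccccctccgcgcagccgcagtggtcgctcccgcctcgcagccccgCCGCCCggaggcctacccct
The *Hdac4* window held 4 GC boxes and 2 CCAAT boxes (CCAAT or ATTGG). The *Hdac7* window held 0 of either, and of the 4 *Hdac7* windows another, which starts 2 coding transcripts and is not shown because it lies in an exon of a further transcript, held 1 GC box. The *Hdac2* window held 1 GC box and 0 CCAAT boxes. *Hdac6*, also lower with butyrate at 48 h, had a window with 4 GC boxes and 2 CCAAT boxes, which is not shown. Of 32851 windows of the same length in the table, 32.7% held at least 1 GC box, 8.47% held at least 3, and 33.8% held at least 1 CCAAT box. The TATA box letters TATAAA, searched on both strands like all motifs here, were in none of the 3 windows shown and in 12.4% of all windows. The E-box letters CACGTG, which read the same on both strands, were also absent from them and in 6.02% of all windows. A match describes the sequence only.

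All 10 genes were well covered. Raw counts lay between 149 (*Hdac8*, butyrate at 72 h) and 7100 (*Hdac1*, butyrate at 48 h), and all 10 passed the filter of a mean normalised count of at least 50 that defined the 11650 genes called tested here, although only sizes of change were compared. *Hdac9*, the remaining class IIa gene, is no member and had 10, 9, 18 and 8 counts in the order without and with butyrate at 48 h, then without and with butyrate at 72 h, which is kept for lists of 4 values below. Library totals were 20790225 to 24207840 counts, in which 3 counts equal 0.124 to 0.144 CPM, and mitochondrial genes took 14.1% to 18.4% of the counts. The 7 epithelial markers (*Epcam*, *Cdh1*, *Krt8*, *Krt18*, *Krt20*, *Vil1* and *Cdx2*) each had 1439 to 40538 counts in the 4 libraries. Summed normalised counts were 22.68 to 31.75 for 6 fibroblast and smooth muscle markers, 32.72 to 56.28 for 4 endothelial markers and 124.7 to 162.9 for 4 markers of neurons and glia, of which *S100b* was at 0 in all libraries. The 6 immune markers summed to 602.3 without and 242.2 with butyrate at 48 h, then to 634.9 and 381.3 at 72 h. Most of that sum was *Cd14*, a lipopolysaccharide co-receptor, with 534 and 221 counts at 48 h, then 579 and 287 at 72 h, while *Ptprc*, the pan-leukocyte marker, had 5 to 15 counts. In bulk RNA, fewer cells of a type and less RNA per cell cannot be told apart.

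In untreated colonoids, class I transcripts prevailed. The level of each gene was taken as counts per kb of exon length, scaled to the same sum in each library as in TPM, the only scale on which genes are compared here. *Hdac1* had the highest level of the 10 in every library (101.9 without and 203.3 with butyrate at 48 h, then 95.58 and 126.3 at 72 h). Its level was at or above that of 91.1% of the tested genes without butyrate and 95.8% with it at 48 h. *Hdac2* and *Hdac3* followed at 53.19 to 73.98, and their order swapped between untreated libraries, where their levels were 60.28 and 59.83 at 48 h, and butyrate libraries, where they were 59.54 and 73.98 at 48 h. The untreated values of this pair differed by less than counting error, and so did those with butyrate at 72 h (65.75 and 68.45). *Hdac11* was the fourth at 24.3 to 31.94. *Hdac6* stood at 9.648 to 11.91, *Hdac7* at 5.008 to 11.11, *Hdac10* at 6.772 to 8.004 and *Hdac5* at 6.864 to 7.33. *Hdac8* and *Hdac4* were the lowest in all 4 libraries, at 3.094 to 4.443 and 2.757 to 4.345. The class I genes thus held the first 3 places as well as 1 of the last 2. With the longest transcript as the length, *Hdac1* and *Hdac11* kept their places, *Hdac2* (76.37) stood above *Hdac3* (65.3) with butyrate at 72 h and neighbours below *Hdac11* changed order. *Hdac8* then left the last 2 places at 48 h, with rank 8 without butyrate (7.601) and rank 7 with it (7.922). These orders thus depend on the length used.

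The composition of the HDAC pool shifted toward *Hdac1* in the butyrate library at 48 h. The summed level of the 10 genes went from 297.0 without butyrate to 403.0 with it at 48 h, and from 265.9 to 335.2 at 72 h. With mitochondrial genes left out of the scaling it was 480.3 and 624.0 at 48 h, then 473.8 and 560.6, which is 1.55 to 1.78 times as high. The untreated levels of *Hdac1* then stood in the other order (164.8 at 48 h and 170.3 at 72 h), and shares of the sum do not depend on this scaling. *Hdac1* made up 34.3% of that sum without butyrate and 50.4% with it at 48 h, then 35.9% and 37.7% at 72 h. The 4 class I genes together made up 76.1% and 84.7% at 48 h, then 77.2% and 78.8% at 72 h. Class IIa had 6.66% of the sum without and 3.62% with butyrate at 48 h, against 7.15% and 6.69% at 72 h. Class IIb went from 6.42% to 4.07% at 48 h and from 6.49% to 5.94% at 72 h, and *Hdac11* from 10.8% to 7.62% and from 9.14% to 8.58%. The 48 h butyrate library therefore stood apart from the other 3, which resembled each other in composition. The ratio of *Hdac1* to *Hdac2* levels, 2 paralogues that occupy the same complexes, was 1.69 without and 3.41 with butyrate at 48 h, then 1.79 and 1.92 at 72 h.

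**Figure D1:**
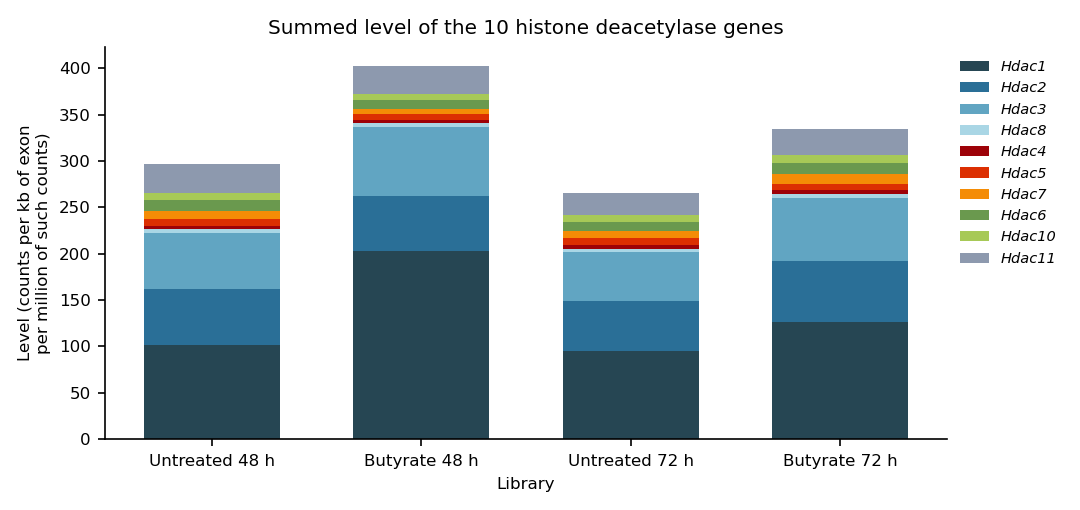
Stacked bars show the level of each of the 10 genes (counts per kb of exon length, scaled as in TPM) in each of the 4 libraries. The bar of the butyrate library at 48 h reaches 403.0, and its lowest segment, *Hdac1*, is 50.4% of it, against 34.3% to 37.7% in the other libraries.

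With butyrate at 48 h, *Hdac1* was higher, *Hdac7* and to a lesser extent *Hdac4* were lower, and *Hdac2* differed by less than counting error. On the scale of normalised counts, 1 of the 10 genes was at least 1.5-fold higher (*Hdac1*) and 1 at least 1.5-fold lower (*Hdac7*), against 8.94% and 6.42% of the 11650 genes tested. The counting interval left out 0 for 5 of the 10, as for 65.8% of all genes tested, and lay above 0 for 2 (30.6% of genes) and below 0 for 3 (35.2%). These shares are near those of all genes, and so is the median log2 change of the 10 genes, −0.07, beside −0.03 for all genes tested. At 72 h, 0 of the 10 were 1.5-fold higher or lower, against 5.87% and 5.13% of genes. Intervals left out 0 for 5 (56.3% of genes), above it for 4 (27.6%) and below it for 1 (28.6%). With total count scaling the 72 h split was 6 above 0, with *Hdac6* and *Hdac11* added, and 0 below it, beside 34.6% and 22.7% of genes. The median at 72 h was 0.13, beside −0.001 for all genes. The largest differences were thus those of single members.

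**Figure D2:**
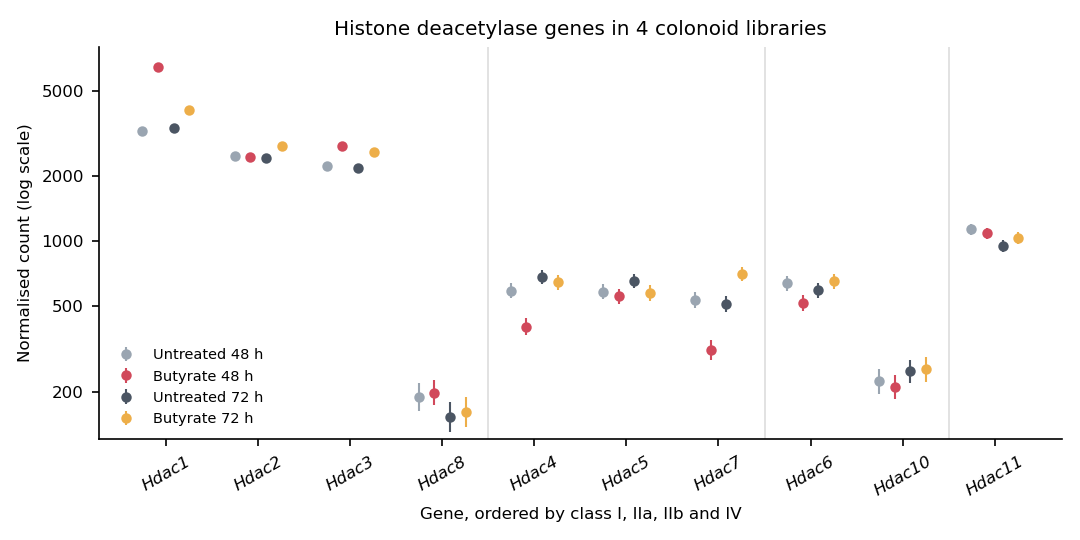
Points show the normalised count of each gene (log scale) in the 4 libraries, 1 library per condition, with exact 95% counting intervals as bars, and grey lines separate classes I, IIa, IIb and IV. *Hdac1* stands at 6442 in the butyrate library at 48 h against 3238 to 4085 in the others, and *Hdac7* at 311.2 against 509.5 to 704.2.

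Among class I genes, *Hdac1* (chr4:129516104-129542713, minus strand, GRCm38), a catalytic subunit of the Sin3, NuRD, CoREST and MiDAC complexes, had 3238 normalised counts without and 6442 with butyrate at 48 h. At 72 h it had 3344 and 4085. The untreated libraries and the butyrate library at 72 h lay nearer to each other, and the butyrate library at 48 h was far above them. The log2 change with butyrate was 0.99 at 48 h (interval 0.93 to 1.05), a ratio of 1.99, and 3.99% of the genes tested had a change at least as high. At 72 h the log2 change was 0.29 (0.22 to 0.36), and 15.9% of genes were at or above it. The change at 72 h minus that at 48 h was −0.70 on the log2 scale (−0.79 to −0.61). Between the untreated libraries *Hdac1* differed by 0.05 (−0.02 to 0.12), and between the butyrate libraries it was lower at 72 h, with a log2 change of −0.66 (−0.72 to −0.60).

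*Hdac1* shares sequence with other genes, which bears on how pseudoalignment assigns its reads. Of the 2008 stretches of 31 bases in its 1 coding transcript, 1218 (60.7%) also occurred in transcripts of 2 other genes. The pseudogene *Gm10093* matched it over 1444 bases at 99.4% identity and *AC125456.1* over 1450 bases at 96.3%. These copies were assigned few reads, with 3, 3, 0 and 0 counts for *Gm10093* and 0, 1, 1 and 0 for *AC125456.1*, in the library order given above. The copies thus had at most 3 counts in any library beside 3167 to 7100 for *Hdac1*, and what share of the *Hdac1* counts could belong to them was not tested.

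*Hdac2* (chr10:36974544-37001889, plus strand) had 2488 normalised counts without and 2451 with butyrate at 48 h, then 2429 and 2761 at 72 h. Only the butyrate library at 72 h stood above the rest. The log2 change was −0.02 (−0.10 to 0.06) at 48 h, then 0.19 (0.10 to 0.27) at 72 h, so the gene did not share the 48 h difference of its paralogue *Hdac1*. *Hdac3* (chr18:37935844-37955016, minus strand), the catalytic subunit of the NCoR/SMRT complex, had 2237 and 2759 normalised counts at 48 h, then 2190 and 2604 at 72 h. Both butyrate libraries were above both untreated ones. Its log2 changes were 0.30 (0.22 to 0.38) and 0.25 (0.17 to 0.33), and their difference, −0.05 (−0.17 to 0.06), was within counting error. *Hdac1* and *Hdac3* were the 2 members with intervals above 0 at both times, as were 13.6% of all genes tested. *Hdac8* (chrX:102284639-102505359, minus strand), which works without a corepressor complex, had 189.2 and 197.8 normalised counts at 48 h, then 152.1 and 160.9 at 72 h. Its log2 changes were 0.06 (−0.23 to 0.36) and 0.08 (−0.25 to 0.42), and its counts were too low to show a difference of that size.

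Summed over class I, normalised counts were 8153 without and 11849 with butyrate at 48 h, a log2 ratio of 0.54 (0.50 to 0.58). At 72 h they were 8115 and 9610, a ratio of 0.24 (0.20 to 0.29). Without *Hdac1*, a choice made after its values were seen, the log2 ratio was 0.14 (0.08 to 0.19) at 48 h, then 0.21 (0.16 to 0.27) at 72 h. *Hdac1* therefore accounted for most of the class I difference at 48 h. It was still the largest single part of the smaller one at 72 h (3344 and 4085), followed by *Hdac3* (2190 and 2604) and *Hdac2* (2429 and 2761). Over the whole family the log2 ratio at 48 h was 0.33 (0.30 to 0.37) with *Hdac1* and −0.02 (−0.06 to 0.02) without it. At 72 h it was 0.20 (0.16 to 0.23) with *Hdac1* and still 0.16 (0.12 to 0.20) without it.

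In class IIa, *Hdac7* and *Hdac4* were lower at 48 h. *Hdac7* (chr15:97792664-97844502, minus strand), a repressor of MEF2 targets studied mostly in T cells and blood vessels, had 532.7 normalised counts without and 311.2 with butyrate at 48 h. At 72 h it had 509.5 and 704.2. The butyrate libraries were thus the lowest and the highest of the 4, with the untreated libraries between them. The log2 change was −0.77 (−0.98 to −0.58) at 48 h, with 3.14% of genes at or below it, then 0.47 (0.30 to 0.64) at 72 h, with 8.36% of genes at or above it. Intervals on opposite sides of 0 at the 2 times were found for 11.3% of all genes tested, and in the direction of *Hdac7* (lower, then higher) for 6.24%. Among the members *Hdac7* alone had them with the main scaling, and *Hdac6* had them as well with total count scaling. Between the untreated libraries *Hdac7* differed by −0.06 (−0.24 to 0.11), and between the butyrate libraries by 1.18 (0.99 to 1.37), which 0.944% of genes reached.

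*Hdac4* (chr1:91928779-92195699, minus strand), which restrains MEF2 factors in muscle and bone, had 589.0 and 401.0 normalised counts at 48 h, then 684.3 and 644.8 at 72 h. Only the butyrate library at 48 h was low. Its log2 change was −0.55 (−0.74 to −0.37) at 48 h, just short of 1.5-fold, then −0.09 (−0.25 to 0.07) at 72 h. Between the butyrate libraries it was higher at 72 h by 0.68 (0.51 to 0.87). *Hdac5* (chr11:102194432-102230166, minus strand) had 582.8 and 554.3 normalised counts at 48 h, then 653.6 and 575.7 at 72 h. Its log2 change was −0.07 (−0.24 to 0.10) at 48 h, then −0.18 (−0.35 to −0.02) at 72 h, so it did not show the pattern of *Hdac4* and *Hdac7*. With total count scaling the 72 h change of *Hdac5* was −0.13, with an interval that held 0. Summed over class IIa, the log2 ratio was −0.43 (−0.53 to −0.33) at 48 h, then 0.06 (−0.04 to 0.15) at 72 h. Class I and class IIa sums thus differed from untreated in opposite directions at 48 h, with intervals that did not overlap.

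In class IIb, *Hdac6* (chrX:7930120-7947889, minus strand), the tubulin deacetylase, had 637.0 and 516.2 normalised counts at 48 h, then 591.4 and 650.2 at 72 h. The butyrate library at 48 h was again the lowest. Its log2 change was −0.30 (−0.47 to −0.14) at 48 h, then 0.14 (−0.03 to 0.30) at 72 h. *Hdac10* (chr15:89123307-89128700, minus strand), a polyamine deacetylase, had 223.9 and 210.5 normalised counts at 48 h, then 248.8 and 253.8 at 72 h. With log2 changes of −0.09 (−0.36 to 0.18) and 0.03 (−0.23 to 0.29), it differed by less than counting error at both times. The class IV gene *Hdac11* (chr6:91156665-91174692, plus strand), which removes long fatty acyl groups, had 1134 and 1088 normalised counts at 48 h, then 949.9 and 1039 at 72 h. Its log2 changes with butyrate, −0.06 (−0.18 to 0.06) and 0.13 (−0.001 to 0.26), held 0 at both times, and its clearest difference was between the untreated libraries, at −0.26 (−0.38 to −0.13). Of the 31-base stretches of *Hdac11*, 23.0% occurred in 2 other genes, among them the antisense gene *Gm44002* over 594 bases. *Gm44002* is not among the gene names counted, and the strand setting of the counting is not given in the sources used here. What share of the *Hdac11* counts could come from that shared stretch of *Gm44002* was not tested.

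**Figure D3:**
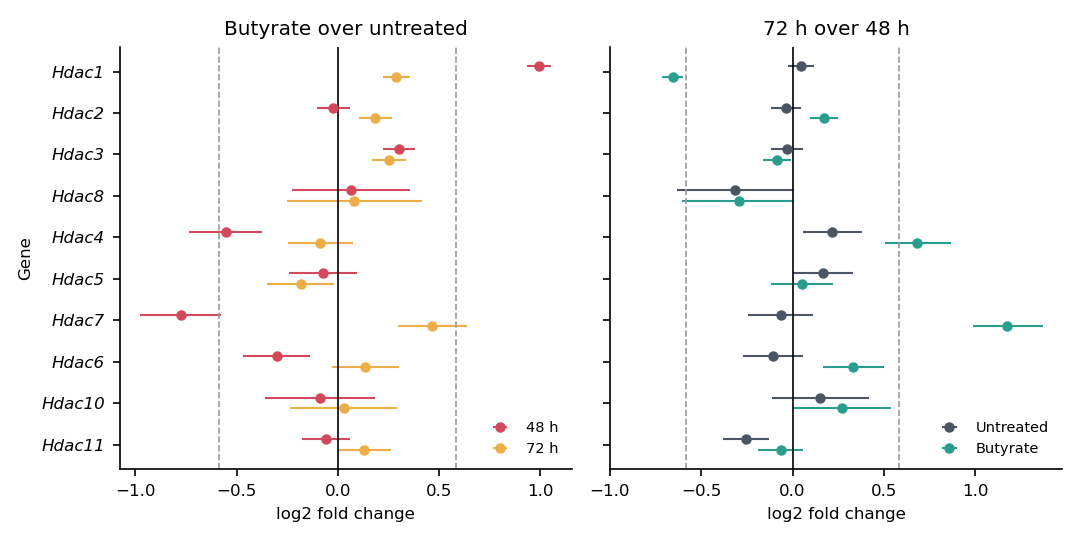
Points show log2 fold changes of normalised counts with exact 95% counting intervals, on the left for butyrate over untreated at 48 h and 72 h and on the right for 72 h over 48 h in untreated and butyrate-treated colonoids. Dashed lines mark 1.5-fold, which *Hdac1* (0.99) and *Hdac7* (−0.77) pass on the left and *Hdac1*, *Hdac4* and *Hdac7*, all in butyrate, on the right.

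The comparison of 72 h with 48 h shows where these differences sit. In untreated colonoids, 0 of the 10 genes differed 1.5-fold in either direction (3.08% of genes tested were higher and 3.31% lower). Intervals left out 0 for 3 of the 10 (47.7% of genes), 2 of them above it (24.6%) and 1 below it (23.1%). This split depends on the scaling, with 1 above and 2 below under TMM factors or size factors from all genes, and 0 above and 5 below with total counts, beside 15.1% and 36.5% of genes. In butyrate-treated colonoids, 2 of the 10 were 1.5-fold higher at 72 h (*Hdac4* and *Hdac7*, 6.61% of genes) and 1 lower (*Hdac1*, 8.45%). Intervals left out 0 for 7 (66.7% of genes), 5 of them above it (32.9%) and 2 below it (33.8%), or 4 and 3 with total count scaling. The members thus differed more often between the butyrate libraries than between the untreated ones, as did genes in general. Each library enters 2 of the 4 comparisons, so they are not independent. Other measures moved along with the libraries. Of 7 proliferation genes, 7 had a log2 change above 0 with butyrate at 72 h, beside 49.9% of all genes tested, and their median was 0.36, beside −0.001. At 48 h, 5 were above 0 and 2 below it, beside 46.9% of genes above 0, and their median was 0.06, beside −0.03. *Top2a* had changes of 0.22 and 0.49 and *Cdk1* of 0.16 and 0.23. Of the 7 epithelial markers, 4 were above 0 and 3 below it at 48 h (median 0.09), and 1 above and 6 below at 72 h (median −0.16). Among them *Krt20*, a marker of differentiated surface cells, had changes of 0.31 and −0.74, *Krt18* of −0.17 and 0.15 and *Vil1* of −0.23 and −0.29. The part of cell state in the HDAC values was not tested.

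Genes whose pattern over the 4 libraries was most like that of *Hdac7*, the member with the widest range (1.18 on the log2 scale), were *Aspm*, *Gm15542* and *Slc4a11*. Likeness was taken as the largest difference between centred log2 values over the 4 libraries, and was 0.09, 0.10 and 0.11. *Aspm*, a spindle protein gene, had 578, 369, 516 and 650 counts, beside 521, 343, 516 and 652 for *Hdac7*. For *Hdac1*, whose neighbours were looked up after its values were seen, the nearest were *Nbl1*, *Ppm1m* and *Gdf11*, at 0.03 to 0.04. *Gdf11*, a TGF-beta family ligand, had 277, 603, 293 and 339 counts. Within 0.1 there were 26 genes for *Hdac1* and 2 for *Hdac7*, and with 4 libraries such likeness is a description.

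HDAC1 and HDAC2 act inside corepressor complexes, and the other subunits were counted as well. Of the 13 Sin3 complex genes, 2 had a log2 change above 0 with butyrate at 48 h, beside 46.9% of all genes tested, and 11 had one below 0, 9 of them with intervals below 0, where 35.2% of all genes tested had such intervals. The median was −0.28, beside −0.03 for all genes. At 72 h, 7 were above 0, beside 49.9% of all genes, 6 were below it and the median was 0.005. *Arid4a*, a DNA-binding subunit, was 1.5-fold lower at 48 h, with 1269, 788.4, 1116 and 974.2 normalised counts in the library order given above, and the scaffold gene *Sin3b* had changes of −0.48 and −0.20. The 2 genes above 0 at 48 h were *Sap18* (0.02 and 0.07) and *Brms1l* (0.05 and 0.14), with intervals that held 0. *Hdac1* and most of the 13 Sin3 genes listed thus differed from untreated in opposite directions at 48 h. The list leaves out *Rbbp4* and *Rbbp7*, which were counted with the NuRD complex and were higher at 48 h (0.11 and 0.06).

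The NuRD complex, which joins HDAC1 and HDAC2 to a chromatin remodeller, had 12 of 13 genes tested, and its medians were 0.07 at 48 h and 0.08 at 72 h. Its remodeller subunits differed. *Chd4* had 8021 and 9056 normalised counts at 48 h, then 8158 and 9704 at 72 h, and *Chd3* had 2777 and 1784, then 2738 and 3305. The log2 change of *Chd3* was −0.64 (−0.72 to −0.55) at 48 h, then 0.27 (0.20 to 0.35) at 72 h, so *Chd3* was lower and then higher, as *Hdac7* was. *Chd4* was higher at both times (0.18 and 0.25), *Mta1* likewise (0.16 and 0.49), and *Mta2* (−0.44 and −0.11) and *Mbd2* (−0.10 and −0.26) were lower.

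The CoREST complex pairs HDAC1 and HDAC2 with the lysine demethylase LSD1. Of its 9 genes, 1 was at least 1.5-fold higher at both times, as were 3.48% of all genes tested. That gene, *Rcor2*, a scaffold subunit, had 313 counts without and 954 with butyrate at 48 h, then 216 and 669 at 72 h. Both butyrate libraries were far above both untreated ones, with log2 changes of 1.43 (1.25 to 1.62) and 1.76 (1.54 to 1.99), larger than that of any HDAC gene. The related gene *Rcor1* had changes of −0.04 and 0.02, with intervals that held 0 at both times. *Rcor3* was lower (−0.31 and −0.18), as was *Hmg20b* (−0.13 and −0.39), while *Kdm1a*, which encodes LSD1, was higher (0.13 and 0.48). The list medians were −0.04 and 0.14.

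In the NCoR/SMRT complex, through which HDAC3 is activated, 6 of 6 genes were tested and the medians were 0.02 and 0.03. *Tbl1xr1* (0.55 and 0.30) and *Tbl1x* (0.31 and 0.15) were higher at both times along with *Hdac3*, whereas *Ncor1* (−0.28 and −0.09) and *Gps2* (−0.22 and −0.23) were lower. *Coro2a* had 2452 and 2592 normalised counts at 48 h (0.08), then 3776 and 2369 at 72 h, where it was 1.5-fold lower (−0.67). Of the 3 MiDAC genes, 2 were tested, and they were split at 48 h. *Dnttip1* was lower at both times (−0.18 and −0.25), and *Elmsan1* was higher at 48 h (0.21, interval 0.10 to 0.32), with an interval that held 0 at 72 h (−0.03).

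Among partners of class IIa, 15 of 16 kinase and 14-3-3 genes were tested and 0 were 1.5-fold higher or lower with butyrate at either time, where 8.94% and 6.42% of all genes tested were at 48 h and 5.87% and 5.13% at 72 h. The medians were −0.06 and −0.02. The 14-3-3 genes did not move as one, since *Ywhag* was higher (0.56 and 0.20) while *Sfn* (−0.40 and −0.49) and *Ywhah* (−0.31 and −0.40) were lower. *Sik1*, a kinase that phosphorylates class IIa HDACs, had changes of 0.20 and 0.23, with intervals that held 0 at both times. Of the 4 MEF2 genes, *Mef2a* and *Mef2d* (0.10 and −0.26) were tested. *Mef2a* was 1.5-fold lower at 48 h, with 1208 and 800.2 normalised counts, and its log2 changes were −0.59 (−0.72 to −0.47) and −0.11 (−0.21 to 0.00). This resembled *Hdac4* in both size and timing.

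Sirtuins are the NAD-dependent deacetylases of class III, which butyrate is not known to inhibit directly. All 7 were tested, with medians of 0.19 at 48 h and 0.09 at 72 h. *Sirt1*, a nuclear deacetylase, had 441 counts without and 234 with butyrate at 48 h, then 548 and 394 at 72 h. It was lower at both times, by log2 changes of −1.08 (−1.32 to −0.86) and −0.35 (−0.54 to −0.16), and the first was below that of any HDAC gene. The mitochondrial sirtuins *Sirt5* (0.81 and 0.69) and *Sirt4* (0.55 and 0.72) were higher at both times, and *Sirt7* was lower at 72 h (−0.25), with an interval that held 0 at 48 h (−0.05).

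Finally, 6 genes known to rise with HDAC inhibitors were listed, although the inhibition itself was not measured. *Cdkn1a*, which encodes the cell cycle inhibitor p21, had 2571 counts without and 5630 with butyrate at 48 h, then 3456 and 3614 at 72 h. The linker histone gene *H1f0* had 4959 and 9611, then 6675 and 6930. For both, the butyrate library at 48 h stood above the other 3, as it did for *Hdac1*. Their log2 changes at 48 h were 0.96 (0.89 to 1.03) and 0.78 (0.73 to 0.83), and at 72 h they were 0.19 (0.13 to 0.26) and 0.18 (0.14 to 0.23). Without butyrate, both were also higher at 72 h than at 48 h, by 0.38 each, whereas *Hdac1* differed by 0.05 (−0.02 to 0.12). In that untreated comparison all 6 listed genes had intervals above 0, as did 24.6% of all genes tested. Their median there was 0.30, beside −0.005 for all genes. *Gsn* (0.40 and −0.46) was higher at 48 h and lower at 72 h, *Txnip* was higher at 48 h (0.24) with a 72 h change of −0.04 that became 0.015 with total count scaling, *Clu* was lower at both times (−0.36 and −0.56) and *Rhob* at 72 h (−0.35), with an interval that held 0 at 48 h (−0.04). Of the 6 genes, 4 were above 0 at 48 h, beside 46.9% of all genes tested, and 2 at 72 h, beside 49.9%. In all, 2 of the 6 were 1.5-fold higher at 48 h, beside 8.94% of all genes tested, and 0 at 72 h, beside 5.87%. The list medians were 0.32 and −0.19.

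**Figure D4:**
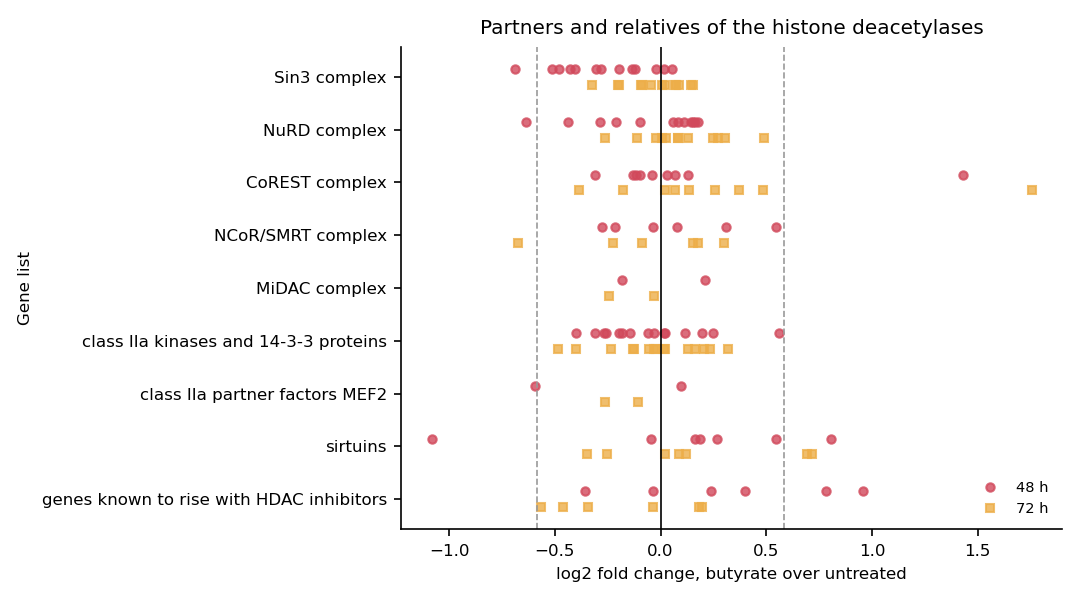
Each point is the log2 fold change of 1 tested gene, butyrate over untreated, at 48 h (circles) and 72 h (squares), with 1 row for each gene list and dashed lines at 1.5-fold. Most Sin3 complex genes lie left of 0 at 48 h, and *Rcor2* of the CoREST complex lies farthest right at both times, at 1.43 and 1.76.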

How the data were processed

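Bulk poly-A RNA-seq of 4 mouse colonoid libraries was analysed, 1 for each of untreated and butyrate at 48 h and 72 h, grouped by the labels. The authors deposited raw counts per gene symbol, made with kallisto 0.44.0 on GRCm38.p6 per the submitters' processing notes and summed to genes with tximport, so the counts are rounded estimates. Of the 36144 names, 26 had become dates, 2 were duplicated and 35977 matched GENCODE M21, which gave positions and exon lengths.

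Size factors (DESeq2 1.42.0) came from the 13979 genes that exceeded 10 counts in 2 or more libraries, as in the study's methods. Log2 changes used a pseudocount of 1 and Clopper-Pearson intervals on pairs of counts, and the 11650 genes that averaged 50 or more normalised counts are called tested, meaning compared with a fold of 1.5. PCR copies cannot be told from molecules here, so intervals and the limit of 3 counts that a 0 allows hold counting error alone. TMM factors came from edgeR 4.0.16 in R 4.3.3, other steps used scipy 1.17.1, pandas 2.3.3 and numpy 2.4.6 in Python 3.11.15, and figures matplotlib 3.10.9. Code was checked on simulated counts.

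Named were all 10 members, the 2 genes of each list with the largest increase and the 2 with the largest decrease of the same sign at both times, cell type markers and the 3 genes most like the member of widest range. *Chd3*, *Coro2a*, *Mef2d*, *Elmsan1*, *Gsn*, *Txnip*, *Hdac9*, *Rbbp4*, *Rbbp7*, *Rcor1* and the neighbours of *Hdac1* fall outside this rule. They were chosen after their values were seen. Some listed marker genes are not reported here. The members and lists were chosen with earlier results of these data known. Alternatives were scaling by TMM or by the total, adding 5 in place of 1, size factors from all genes, thinning to the smallest total (100 draws), the looser filter, the length of the longest transcript and a sum without mitochondrial genes.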

Additional observations from a re-analysis of the deposited data

Results flagged for a closer look

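*Hdac7* drew attention because its change with butyrate had opposite signs at the 2 times. Its log2 change was −0.77 at 48 h and 0.47 at 72 h, and the difference between these changes, 1.24, had a lower 95% bound of 0.98 from counting error. With 1 library per condition the difference was not tested against replicate error, and 11.3% of all genes tested had opposite changes with both intervals leaving out 0.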

How the results depend on the processing

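Log2 changes with butyrate of the 10 genes kept their sign under the 5 alternatives run on them (TMM factors, total count scaling, a pseudocount of 5, size factors from all genes, thinning), and *Hdac1* at 48 h stayed at 0.98 to 1.00 and *Hdac7* at −0.78 to −0.77. At 48 h the members with intervals off 0 stayed 2 above and 3 below under the other scalings. The difference of *Hdac1* between untreated libraries, whose interval holds 0, went from 0.05 to −0.03 with total count scaling. That scaling moved the class I ratio at 72 h to 0.296 and leaving *Hdac1* out moved that at 48 h to 0.138. With the looser filter (over 10 counts in 2 libraries), more genes were compared and more passed 1.5-fold: 1837 higher and 1244 lower at 48 h, 1328 and 1192 at 72 h, 953 and 723 between untreated libraries, and 1351 and 1663 between butyrate libraries. Levels per kb moved beyond counting error for 30 of 40 values with the longest transcript and for 40 of 40 without mitochondrial genes in the sum, by 1.55 to 1.78 times. The labels give no replicate numbers, and an additive fit that pairs the libraries by time, with 1 residual degree of freedom, was not run. Depth limits *Hdac8* and *Hdac10* most, with 149 to 252 counts.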
